A study of Mus musculus with 6 samples.

Results

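The enzymes of gluconeogenesis and fructose metabolism were followed in jejunal intestinal epithelial cells (IEC) of control and Hdac1/2-deleted mice. The set holds 9 genes chosen by name from the 19616 genes of the deposited table, namely Pck1, Pck2, G6pc, Fbp1, Khk, Hk1, Hk2, Pfkfb3 and Pklr. All 9 were present and all 9 passed the filter on low counts, which kept 15618 genes. RNA-Seq was performed on IEC from 3 control mice, C1, C3 and C3-3, and from 3 Hdac1/2-deleted mice, H1, H5 and H9, with 1 library per mouse. Control mice were wild-type by their labels, and Hdac1/2-deleted mice carried villin-Cre with Hdac1-/- and Hdac2-/-. All mice were 3 months old, no treatment is named in the labels, and the study's methods give a mixed background of C57BL/6J, 129SV and CD1. The villin promoter drives Cre in the intestinal epithelium, so that cells of other types keep floxed alleles intact, and the IEC were enriched with EDTA, not sorted. The sources used here give no sex, litter, feeding state or hour of collection for these mice.

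Gluconeogenesis makes glucose from lactate, glycerol and amino acids, and it bypasses the irreversible steps of glycolysis with enzymes of its own. Phosphoenolpyruvate carboxykinase, fructose-1,6-bisphosphatase and glucose-6-phosphatase are such enzymes, while hexokinases, phosphofructokinase and pyruvate kinase drive the opposite direction. Liver and kidney are the main sites of gluconeogenesis, and the small intestine also expresses its enzymes. Dietary fructose enters the enterocyte from the lumen and is phosphorylated by ketohexokinase, then split into trioses that can be burned, turned into glucose or exported.

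Library totals ranged from 58017009 to 65902344 counts in the control mice and from 36111035 to 65230566 in the Hdac1/2-deleted mice, so that 3 counts stood for 0.0405 to 0.079 CPM, which are counts scaled to a common library total with edgeR's TMM factors. Hdac1 CPM was 39.1, 34.5 and 48.9 in C1, C3 and C3-3, against 3.97, 2.53 and 4.81 in H1, H5 and H9. This was a log2 fold change of -3.43 (SE 0.26, edgeR adjusted p = 2.9e-05), so Hdac1 RNA matched its label. Hdac2 CPM was 32.9, 23.6 and 26.5 in the control mice and 26.6, 25.4 and 21.4 in the Hdac1/2-deleted mice, with overlapping groups and a log2 fold change of -0.18 (SE 0.17, edgeR adjusted p = 0.44). The Hdac2 counts thus did not show the deletion that the label names. Counts over a whole gene also take in exons outside a deleted segment. Whether this or retained Hdac2 alleles lay behind the Hdac2 values was not tested. The group is named Hdac1/2-deleted as labelled. Counts of Y-linked genes reached 3082 in C3 and 1 to 13 in the other libraries, so C3 was apart from its group in this respect. The 20 most abundant genes took 16% to 19.2% of counts in the control mice and 11.8% to 12.4% in the Hdac1/2-deleted mice.

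Of the 9 genes, 2 increased (Hk2 and Pklr), 1 decreased (Pck1) and 6 were not called. A gene was called increased or decreased at an edgeR quasi-likelihood p of at most 0.05 after Benjamini-Hochberg adjustment over all genes tested, together with a change of at least 2-fold. Under that rule 12.4% of all tested genes increased and 12.7% decreased, and beside these shares 2 and 1 of 9 are no result about the set. The groups did not overlap for 4 of the 9 genes, with Hk2 and Pklr higher and Pck1 and Pck2 lower in every Hdac1/2-deleted mouse, while 53.2% of all tested genes did not overlap in either direction. Their median log2 fold change was -0.15, beside -0.0081 over all tested genes. In bulk RNA, fewer cells that express a gene and less of its RNA per cell cannot be told apart.

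**Figure D1:**
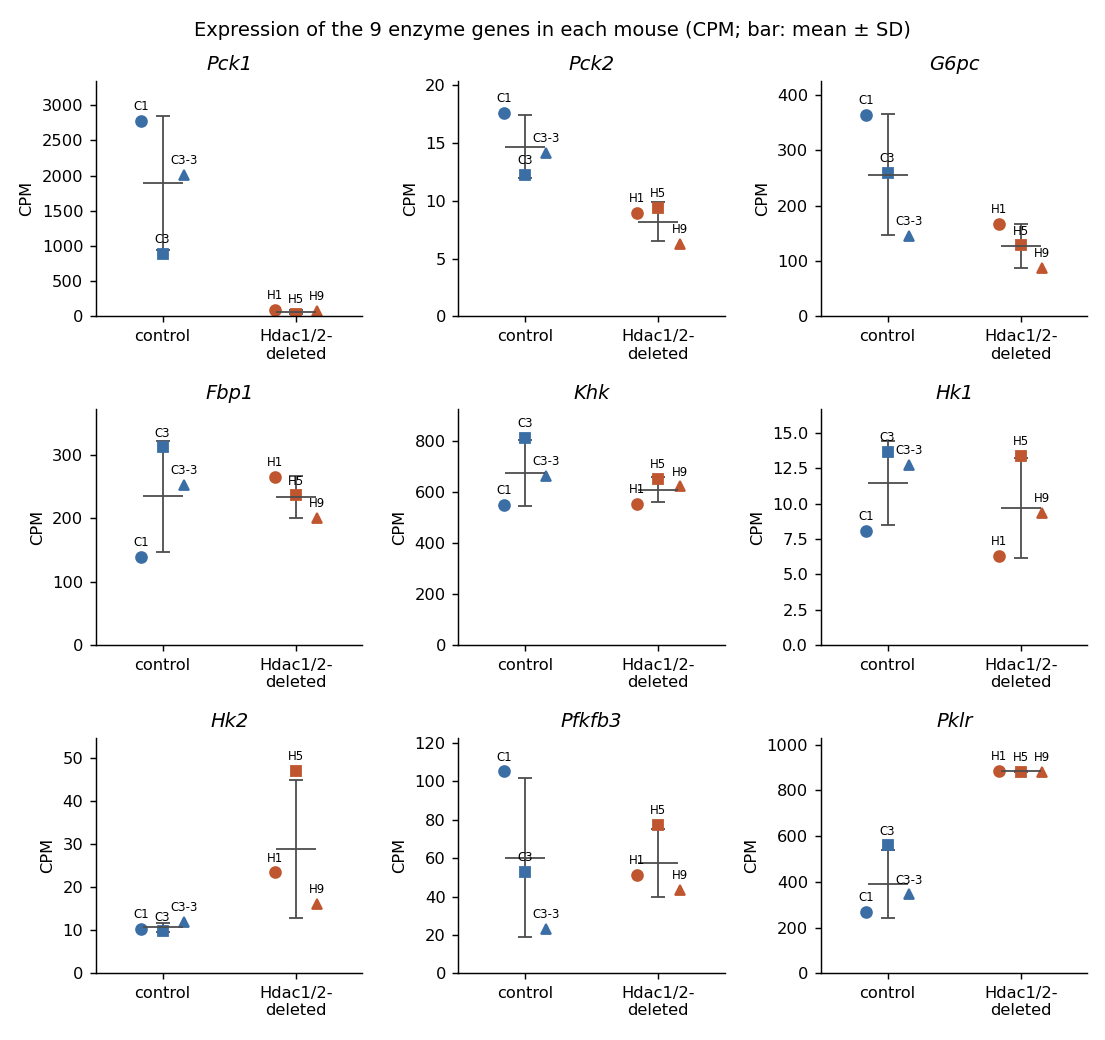
CPM (linear vertical axis from 0, 1 panel per gene) of the 9 enzyme genes in each control mouse (blue) and each Hdac1/2-deleted mouse (orange), with the group mean and SD as bars. Pck1 sits at 885 to 2778 in the control mice and at 33.0 to 88.1 in the Hdac1/2-deleted mice, and the 3 Pklr values of Hdac1/2-deleted mice lie together at 879 to 886, above every control mouse.

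Pck1 encodes the cytosolic phosphoenolpyruvate carboxykinase, which turns oxaloacetate into phosphoenolpyruvate and is the first committed enzyme of gluconeogenesis. The gene lies at chr2:173153048-173159273 on the plus strand of GRCm38, with no annotated gene overlapping it. Its promoter is shown because Pck1 carried the strongest change of the set. The 250 bases before the RefSeq start site, at chr2:173152823-173153072 of GRCm38.p6 on the plus strand, are printed 5′ to 3′ with matches to the searched motifs in capitals.
Pck1: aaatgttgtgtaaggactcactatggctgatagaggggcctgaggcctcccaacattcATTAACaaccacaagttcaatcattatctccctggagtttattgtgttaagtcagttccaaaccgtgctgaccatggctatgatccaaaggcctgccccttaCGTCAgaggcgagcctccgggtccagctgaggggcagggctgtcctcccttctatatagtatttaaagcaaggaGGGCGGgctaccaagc
The capitals mark GTTAAT, letters bound by HNF1 factors, on the minus strand at -192, TGACG, the core of a cyclic AMP response element (CRE), on the minus strand at -90, and the GC box GGGCGG at -16. Positions count from the start site, and each gives the leftmost base of the match.

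Pck1 CPM was 2778 in C1, 885 in C3 and 2014 in C3-3, against 88.1 in H1, 33.0 in H5 and 78.7 in H9. The lowest control mouse was above the highest Hdac1/2-deleted mouse, and within each group the mice also differed widely. The mean was 1892 ± 953 in the control mice and 66.6 ± 29.5 in the Hdac1/2-deleted mice (SD, n = 3 each). Pck1 thus decreased 28.4-fold, a log2 fold change of -4.83 (SE 0.58, 95% interval -6.20 to -3.46, edgeR adjusted p = 0.00077). With 1 mouse left out in turn, the log2 fold change stayed between -5.16 and -4.44 and Pck1 was called each time, also without C3, at -5.16.

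Pck2 encodes the mitochondrial isozyme of the same reaction and lies at chr14:55540266-55551242 on the plus strand. Pck2 CPM was 17.6, 12.3 and 14.2 in C1, C3 and C3-3, and 8.95, 9.40 and 6.29 in H1, H5 and H9. None of the Hdac1/2-deleted mice reached the lowest control mouse. The log2 fold change was -0.84 (SE 0.22, 95% interval -1.35 to -0.33, edgeR adjusted p = 0.015), a 1.79-fold difference that misses the 2-fold limit. The ratio of Pck1 to Pck2 CPM within a library was 158, 72.0 and 142 in the control mice and 9.85, 3.51 and 12.5 in the Hdac1/2-deleted mice. Per kb of exon too, the cytosolic isozyme was the more abundant one in every mouse, but its lead over the mitochondrial isozyme was smaller in each Hdac1/2-deleted mouse. The mean log2 ratio was 6.87 ± 0.61 in control and 2.92 ± 0.97 in the Hdac1/2-deleted mice, a difference of -3.96 (2-sided exact permutation test, p = 0.1, adjusted p = 0.1 over 3 ratios), and 0.1 is the smallest p that 3 against 3 mice can give.

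G6pc encodes the catalytic subunit of glucose-6-phosphatase, which releases free glucose in the last step of the route, and lies at chr11:101367561-101377903 on the plus strand. G6pc CPM was 363, 259 and 145 in C1, C3 and C3-3, and 167, 128 and 88.1 in H1, H5 and H9. Control mouse C3-3 was below H1, so the groups overlapped. The means were 256 ± 110 and 128 ± 39.6, a log2 fold change of -0.9999 (SE 0.36, 95% interval -1.84 to -0.16, edgeR adjusted p = 0.061) that did not pass the test. Without C3-3 the value was -1.27 with an edgeR adjusted p of 0.0096, and G6pc was then called.

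The phosphatase works with a transporter that brings glucose 6-phosphate into the endoplasmic reticulum, and its gene, Slc37a4, was named whatever its value because it completes the route. Slc37a4 CPM was 167, 189 and 204 in the control mice and 66.6, 64.7 and 75.4 in the Hdac1/2-deleted mice. The groups were far apart, and Slc37a4 decreased 2.71-fold (log2 fold change -1.44, SE 0.14, edgeR adjusted p = 9.7e-05). Pcx, for the pyruvate carboxylase that feeds oxaloacetate to Pck1 and Pck2, had 91.1, 142 and 118 CPM in the control mice and 65.7, 75.7 and 70.3 CPM in the Hdac1/2-deleted mice. Pcx was lower in every Hdac1/2-deleted mouse, with a log2 fold change of -0.73 (SE 0.17, edgeR adjusted p = 0.0093) that is under 2-fold.

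Fbp1 encodes fructose-1,6-bisphosphatase, which opposes phosphofructokinase, and lies at chr13:62864753-62888282 on the minus strand. Fbp1 CPM was 139, 312 and 253 in C1, C3 and C3-3, and 265, 236 and 200 in H1, H5 and H9. All 3 Hdac1/2-deleted mice lay inside the range of the control mice. The means were 234 ± 88.1 and 234 ± 32.7, a log2 fold change of -0.0043 (SE 0.27, edgeR adjusted p = 0.99). Its 95% interval of -0.63 to 0.62 leaves room for changes of up to about these sizes in either direction. At the mRNA level, the committed steps of the route thus gave different values in the same mice, from Pck1 at -4.83 through G6pc at -0.9999 to Fbp1 at -0.0043.

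Khk encodes ketohexokinase, which phosphorylates fructose at its first carbon, and lies at chr5:30921431-30931248 on the plus strand. Khk CPM was 549, 811 and 663 in C1, C3 and C3-3, and 553, 650 and 622 in H1, H5 and H9. Here too the Hdac1/2-deleted mice lay within the control range. The log2 fold change was -0.15 (SE 0.18, 95% interval -0.56 to 0.26, edgeR adjusted p = 0.54). Counts per gene cannot separate the 2 alternative products of Khk, an enterocyte and liver form with high affinity for fructose and a widely expressed form.

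The fructose carrier before Khk and the triose kinase after it in the fructose route also did not pass the test. Slc2a5, for the fructose carrier of the brush border, spread over 173 to 591 CPM in the control mice and over 285 to 400 CPM in the Hdac1/2-deleted mice (log2 fold change -0.13, SE 0.41, edgeR adjusted p = 0.82). Tkfc, for the kinase of glyceraldehyde, had 968 ± 393 and 1175 ± 157 CPM (log2 fold change 0.28, SE 0.27, edgeR adjusted p = 0.44).

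Slc2a2, for the basolateral carrier of glucose and fructose, was lower in each Hdac1/2-deleted mouse. Its CPM was 316, 320 and 583 in the control mice and 256, 165 and 244 in the Hdac1/2-deleted mice, a log2 fold change of -0.87 (SE 0.28, edgeR adjusted p = 0.033), under 2-fold. It was called decreased without C1, at -1.02, and without C3, also at -1.02.

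The hexokinases phosphorylate glucose and other hexoses on entry into the cell. Hk2, an isozyme known from muscle, fat and proliferating cells, lies at chr6:82725025-82774454 on the minus strand. It overlaps an antisense gene that was not among the genes tested. Its promoter is shown because Hk2 was one of the called members. The 250 bases before its RefSeq start site, at chr6:82774455-82774704 of GRCm38.p6, are printed along the minus strand.
Hk2: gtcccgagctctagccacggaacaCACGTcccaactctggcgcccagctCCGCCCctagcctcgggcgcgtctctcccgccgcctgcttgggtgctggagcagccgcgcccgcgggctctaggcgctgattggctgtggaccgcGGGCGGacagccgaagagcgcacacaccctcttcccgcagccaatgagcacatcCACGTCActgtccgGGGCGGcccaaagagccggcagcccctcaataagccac
The capitals mark the hypoxia element ACGTG on the minus strand at -226 and -52, GC boxes at -201, -106 and -38, and a TGACG on the minus strand at -50 that shares letters with the second hypoxia element.

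Hk2 CPM was 10.3, 9.78 and 12.0 in C1, C3 and C3-3, and 23.5, 47.0 and 16.2 in H1, H5 and H9. The control mice lay close together, and the Hdac1/2-deleted mice lay above all of them but far from each other. The mean was 10.7 ± 1.15 in control and 28.9 ± 16.1 in the Hdac1/2-deleted mice, and Hk2 increased 2.70-fold (log2 fold change 1.43, SE 0.36, 95% interval 0.60 to 2.27, edgeR adjusted p = 0.015). The call was lost without C1 (1.42, edgeR adjusted p = 0.055), without C3 (1.38, edgeR adjusted p = 0.055) and without H5, where the log2 fold change was 0.90 with an edgeR adjusted p of 0.017 and so fell short of 2-fold.

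Hk1, the hexokinase of most tissues, lies at chr10:62268855-62379908 on the minus strand. Hk1 CPM was 8.06, 13.6 and 12.7 in C1, C3 and C3-3, and 6.32, 13.4 and 9.35 in H1, H5 and H9. The groups overlapped, with a log2 fold change of -0.25 (SE 0.31, 95% interval -0.94 to 0.45, edgeR adjusted p = 0.55). The ratio of Hk2 to Hk1 CPM was 1.27, 0.717 and 0.941 in the control mice and 3.72, 3.51 and 1.73 in the Hdac1/2-deleted mice. The ratio was higher in each Hdac1/2-deleted mouse than in any control mouse. The mean log2 ratio was -0.073 ± 0.41 and 1.5 ± 0.61, a difference of 1.57 (2-sided exact permutation test, p = 0.1, adjusted p = 0.1 over 3 ratios).

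Pfkfb3 encodes the bifunctional enzyme that sets the level of fructose 2,6-bisphosphate, an activator of phosphofructokinase and inhibitor of fructose-1,6-bisphosphatase, and lies at chr2:11471433-11554077 on the minus strand. Pfkfb3 CPM was 105, 52.7 and 23.2 in C1, C3 and C3-3, and 51.1, 77.5 and 43.7 in H1, H5 and H9. It was the least even gene of the set among control mice, with a coefficient of variation of 68.8%, and the Hdac1/2-deleted mice lay within the control range. The log2 fold change was -0.073 (SE 0.54), and its 95% interval of -1.37 to 1.23 also covers 2-fold changes both ways (edgeR adjusted p = 0.93).

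Pklr encodes the pyruvate kinase of liver and red cells, which is also found in the small intestine and closes glycolysis by making pyruvate from phosphoenolpyruvate. It thus works against the product of Pck1. The gene lies at chr3:89136142-89146784 on the plus strand and has 2 RefSeq start windows. The first, upstream of the longer transcript at chr3:89135892-89136141 of GRCm38.p6 on the plus strand, is shown because Pklr increased and this window held no match to any searched motif.
Pklr: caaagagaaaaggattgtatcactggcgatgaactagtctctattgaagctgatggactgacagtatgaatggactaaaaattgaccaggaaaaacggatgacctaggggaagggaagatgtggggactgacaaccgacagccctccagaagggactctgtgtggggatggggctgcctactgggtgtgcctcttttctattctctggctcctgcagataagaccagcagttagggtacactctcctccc
The second window, which is not printed, held a TATAAA at -31 and no other exact match to the searched letters. Inexact forms of the motifs were not searched. The first bases after this start site were not found in a GENCODE transcript of Pklr. Counts per gene do not tell which of the 2 start sites these cells used, so the printed window may not be the one in use.

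Pklr CPM was 269, 559 and 345 in C1, C3 and C3-3, and 886, 881 and 879 in H1, H5 and H9. All Hdac1/2-deleted mice were above all control mice, and they differed from each other by far less than the control mice did, with coefficients of variation of 0.409% and 38.4%. These coefficients rest on 3 mice each and on the TMM factors. How close the values of the Hdac1/2-deleted mice lie under other scalings was not tested. The mean was 391 ± 150 in control and 882 ± 3.60 in the Hdac1/2-deleted mice, and Pklr increased 2.26-fold (log2 fold change 1.17, SE 0.25, 95% interval 0.60 to 1.75, edgeR adjusted p = 0.0058). Without C1 the log2 fold change was 0.97 (edgeR adjusted p = 0.009), just under 2-fold.

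Hcn3, on the opposite strand, overlaps Pklr. It had 17, 10 and 16 counts in C1, C3 and C3-3, and 142, 124 and 122 counts in H1, H5 and H9. Hcn3 thus increased too (log2 fold change 3.26, SE 0.40, edgeR adjusted p = 0.00032). Pklr had at least 17824 counts per library. Whether reads of the opposite strand entered the Pklr counts was not tested. Pkm, for the other pyruvate kinase gene of the body, had 1639 ± 272 CPM in the control mice and 1504 ± 182 CPM in the Hdac1/2-deleted mice (log2 fold change -0.12, SE 0.19, edgeR adjusted p = 0.63). The ratio of Pklr to Pkm CPM was 0.193, 0.289 and 0.217 in the control mice, and 0.658, 0.518 and 0.601 in the Hdac1/2-deleted mice. Per kb of exon, Pklr was at 83.2 to 173 beside 279 to 387 for Pkm in the control mice, and at 272 to 274 beside 269 to 340 in the Hdac1/2-deleted mice. Pklr was thus closer to Pkm in each Hdac1/2-deleted mouse, with a difference in mean log2 ratio of 1.36 (2-sided exact permutation test, p = 0.1, adjusted p = 0.1 over 3 ratios).

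**Figure D2:**
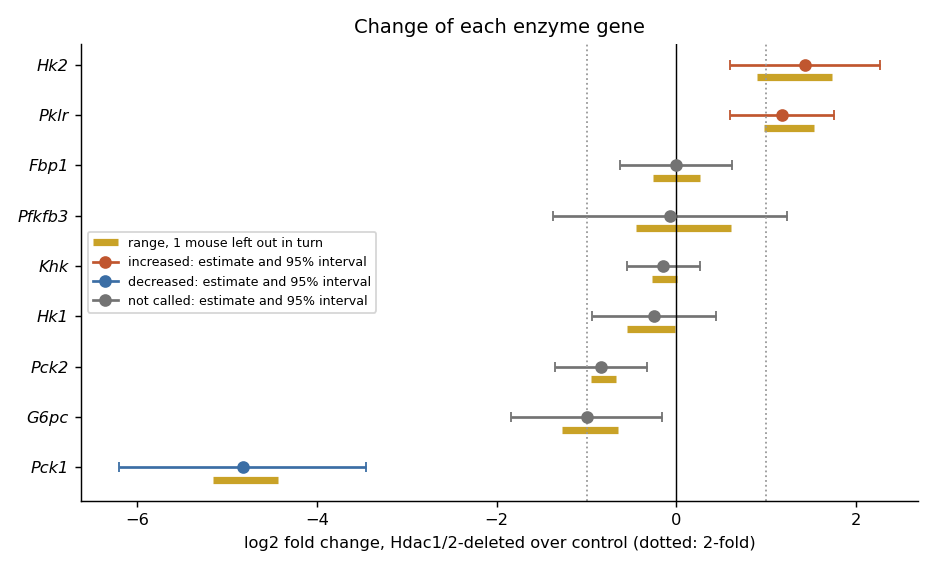
Log2 fold change of each enzyme gene in Hdac1/2-deleted over control mice (horizontal axis), with its 95% interval as a thin line and, as a thick yellow line, the range of estimates with 1 mouse left out in turn. Pck1 stands alone at -4.83, Hk2 and Pklr lie past the dotted 2-fold line at 1.43 and 1.17, and the intervals of Fbp1, Pfkfb3, Khk and Hk1 span 0.

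Mice of the same group differed from each other in several of the 9 genes, and not in 1 common direction. Among control mice, C1 was highest for Pck1, Pck2, G6pc and Pfkfb3 and lowest for Fbp1, Khk, Hk1 and Pklr. C3 was its mirror image for most of these, highest for Fbp1, Khk, Hk1 and Pklr and lowest for Pck1, Pck2 and Hk2. Relative to the control mean, C1 was at 0.55 for Pck1 and -0.76 for Fbp1 on the log2 scale, and C3 was at -1.10 and 0.41. Wild-type mice of the same age were therefore not ordered alike in the members of a single route, with C1 highest for G6pc and lowest for Fbp1. Among Hdac1/2-deleted mice, H5 was highest for 5 genes, including Hk2 at 2.14 above the control mean, and lowest for Pck1 at -5.84. H9 was lowest for 6 of the 9 genes and highest for none.

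**Figure D3:**
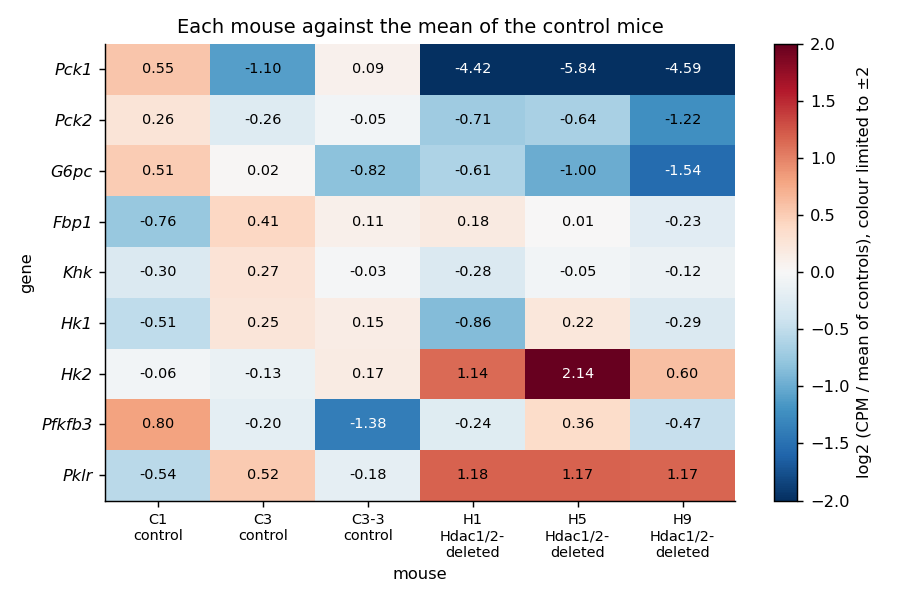
Log2 of CPM over the control mean for each enzyme gene (rows) in each mouse (columns), with the value printed in each cell and the colours limited to 2 either way. Pck1 reads -4.42 to -5.84 and Pklr 1.17 to 1.18 in the Hdac1/2-deleted mice, while C1 and C3 differ in sign for 7 of the 9 genes.

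For Pck1, Fbp1 and Khk, the genes with the most similar pattern over the 6 libraries were taken by Pearson's r of log2 CPM among 8590 tested genes whose mean log2 CPM reached 3. The nearest to Pck1 were Pgm3 (r = 0.998), Mycbp2 (r = 0.998) and Ndnl2 (r = 0.998). The 90th percentile of r for Pck1 was 0.928, so many genes followed its pattern closely. The nearest to Fbp1 were Ppox (r = 0.967), Mthfsd (r = 0.962) and Alkbh3 (r = 0.961), above a 90th percentile of 0.434. The nearest to Khk were Yif1a (r = 0.998), Aldh3b1 (r = 0.997) and Idnk (r = 0.991), above a 90th percentile of 0.618. These are descriptions over 6 libraries that share their scaling, and 6 points leave room for high values.

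To compare levels between genes, CPM was divided by the length in kb of the union of a gene's exons in GENCODE. In control mice Pck1 (552 ± 278 CPM per kb) and Khk (375 ± 73.0) led the set and their ranges overlapped. Fbp1 (138 ± 51.8), Pklr (121 ± 46.5) and G6pc (106 ± 45.4) followed and could not be told apart by their spread. Pfkfb3 was at 7.98 ± 5.49, and Pck2 (1.88 ± 0.35), Hk2 (1.79 ± 0.19) and Hk1 (1.34 ± 0.35) closed the order. Pck2 overlapped both Hk2 and Hk1, while the lowest Hk2 value, 1.64, was just above the highest Hk1 value, 1.60. The set thus spanned a wide range of levels, with Pck2, Hk2 and Hk1 the lowest per kb. The union takes in every annotated exon, used in these cells or not. A long union, such as 7.81 kb for Pck2 and 8.53 kb for Hk1, can therefore lower the value per kb.

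In Hdac1/2-deleted mice the order per kb changed at the top and the bottom. Khk (339 ± 27.7 CPM per kb) and Pklr (273 ± 1.119) now led, with no overlap between them. Fbp1 (137 ± 19.2) and G6pc (52.9 ± 16.4) came next, followed by Pck1, which had moved from the first to the fifth place at 19.4 ± 8.60. Pfkfb3 (7.60 ± 2.35) overlapped both Pck1 and Hk2 (4.84 ± 2.70), and Hk1 (1.13 ± 0.41) and Pck2 (1.05 ± 0.22) overlapped each other.

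Neither Hk1 nor Hk2 was as high per kb as a further hexokinase of these cells. Hkdc1, a hexokinase of the gut epithelium that lies beside Hk1, stood at 83.7 ± 11.6 CPM per kb in the control mice and 131 ± 22.4 in the Hdac1/2-deleted mice. Likewise Fbp2, known as the muscle form of fructose-1,6-bisphosphatase, stood at 347 ± 12.6 and 368 ± 34.7 CPM per kb, above Fbp1 in every mouse. In CPM, Hkdc1 was higher in every Hdac1/2-deleted mouse with a log2 fold change of 0.65 (SE 0.18, edgeR adjusted p = 0.021), under 2-fold, and Fbp2 was at 0.084 (SE 0.14, edgeR adjusted p = 0.68). Hkdc1 and Fbp2 were picked out after their values had been seen.

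**Figure D4:**
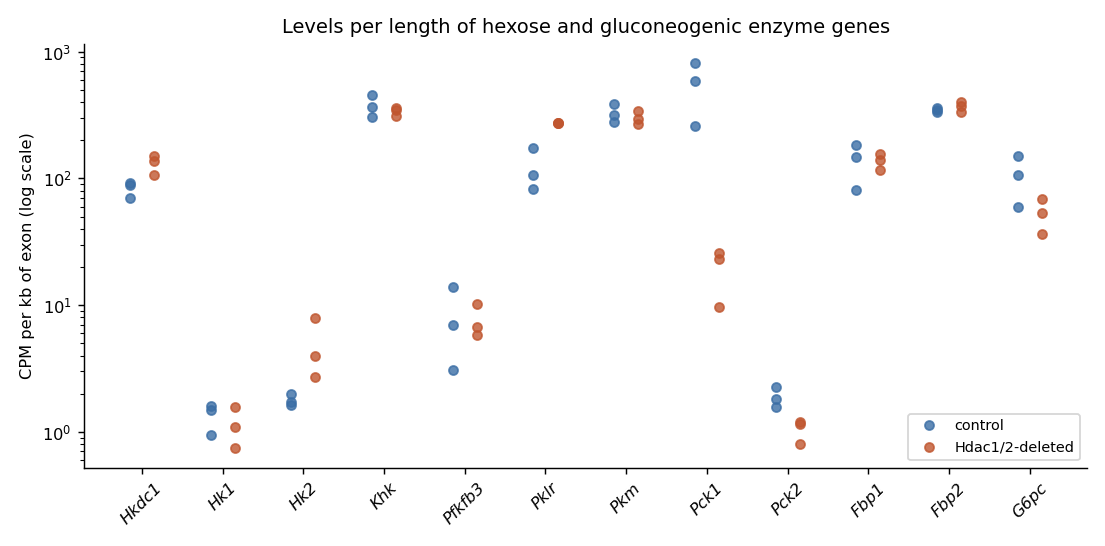
CPM per kb of exon (log axis) of the enzyme genes and related isozymes, with 1 point per mouse, control in blue and Hdac1/2-deleted in orange. Hkdc1 lies above Hk1 and Hk2 in both groups, and Pck1 drops from 258 to 810 in the control mice to 9.63 to 25.7 in the Hdac1/2-deleted mice.

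RefSeq start windows of GRCm38.p6, from 250 bases before to 50 bases after the start site, were found for all 9 genes and numbered 12. The motifs were searched as exact letters on both strands and set beside their share among 32851 windows of all genes. GGGCGG occurred in 7 of the 12 windows and in 35.7% of all windows. TGACG and ACGTG occurred in 5 windows each, against 20.8% and 19.6% of all. Full E-boxes, CACGTG, which hold ACGTG on both strands, occurred in 2 windows, of Khk and Pfkfb3, against 7.15% of all. GTTAAT occurred in 3 windows, of Pck1, G6pc and Khk, against 7.10% of all. TATAAA occurred in the G6pc window and the second Pklr window, against 13.6%, and TGTTCT, letters bound by the glucocorticoid receptor, in 1 Hk1 window, against 19.0%. The full CRE TGACGTCA, the forkhead motif TGTTTAC and the HNF4 letters CAAAGTCCA had no match, with shares of 1.79%, 3.65% and 0.475% among all windows. The called and uncalled genes shared most motifs, for example TGACG in windows of Pck1 and Hk2, which moved in opposite directions, and of Khk and Pfkfb3, which were not called. A match of letters describes the window and does not show binding.

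The other genes of gluconeogenesis and of its substrate supply moved both ways. Of 16 tested genes, 3 increased and 3 decreased, and the median log2 fold change was 0.019. Such counts, here and in the lists below, stand beside 12.4% increased and 12.7% decreased among all tested genes. No list was tested as a set. The transaminases that link aspartate and oxaloacetate both increased, cytosolic Got1 from 68.6 ± 18.8 to 247 ± 17.9 CPM (log2 fold change 1.85, edgeR adjusted p = 0.00021) and mitochondrial Got2 from 87.2 ± 22.7 to 207 ± 28.3 CPM (1.25, edgeR adjusted p = 0.0014). Ldha, for the lactate dehydrogenase subunit of glycolytic tissue, increased from 1878 ± 535 to 3988 ± 502 CPM (1.09, edgeR adjusted p = 0.0057), a call lost without C3-3 and without H5, at 0.96 and 0.9985. Ldhb, for the other subunit, decreased but was close to the limit of counting, with 127, 35 and 49 counts in the control mice and 6, 2 and 0 in the Hdac1/2-deleted mice (edgeR adjusted p = 0.0021). Gk, for the glycerol kinase that lets glycerol enter the route, decreased from 210 ± 11.7 to 104 ± 21.0 CPM (-1.01, edgeR adjusted p = 0.0017) and lay so near 2-fold that 6 of 12 alternatives did not call it. Slc37a4, described above, was the third decrease.

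Of 10 tested genes of fructose and polyol handling, 2 increased and the other 8 were not called, with a median of 0.089. Both increases were beside the main route from Khk to the trioses. Glyctk, for the kinase that takes up glycerate from the breakdown of fructose and serine, increased from 27.9 ± 5.13 to 125 ± 3.65 CPM (2.16, edgeR adjusted p = 2.8e-05). Pmm1, for a phosphomannomutase, increased from 10.01 ± 4.08 to 52.1 ± 8.99 CPM (2.38, edgeR adjusted p = 0.00039).

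Of 23 tested genes of glycolysis other than those of the set, 4 increased and 1 decreased. Of the 23 log2 fold changes, 17 were above 0, with a median of 0.49 beside -0.0081 over all tested genes. The median of 0.49 was the highest among the lists of enzymes, transporters and regulators. Aldoa, for aldolase A, increased from 696 ± 187 to 1422 ± 302 CPM (1.03, edgeR adjusted p = 0.008), but 3 of 12 alternatives, without C1, C3-3 or H5, put it under 2-fold. Eno3, for the enolase of muscle, increased from 11.6 ± 2.78 to 45.4 ± 13.2 CPM (1.97, edgeR adjusted p = 0.00053). Eno2, for the enolase of neurons, increased from 8, 6 and 1 counts to 217, 73 and 156 counts (edgeR adjusted p = 2e-04), and Pgam2, for the muscle phosphoglycerate mutase, from 2, 3 and 0 counts to 44, 65 and 53 counts (edgeR adjusted p = 0.00097). Per kb of exon, Eno3 was at 26.1 ± 7.61 and Eno2 and Pgam2 were far lower still in the Hdac1/2-deleted mice, beside 300.7 ± 36.3 for Pkm. The decrease was that of Pfkfb1, the liver relative of Pfkfb3, from 1.67 ± 0.13 to 0.633 ± 0.18 CPM (-1.38, edgeR adjusted p = 0.011).

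Pdk4 encodes a kinase that shuts pyruvate dehydrogenase and so spares pyruvate for glucose production. Pdk4 CPM was 368, 163 and 130 in C1, C3 and C3-3, and 4.68, 3.40 and 3.04 in H1, H5 and H9, and it decreased 59.1-fold (log2 fold change -5.89, SE 0.49, edgeR adjusted p = 0.00016). Pdhb, for a subunit of the dehydrogenase itself, increased from 54.1 ± 2.97 to 122 ± 23.9 CPM (1.17, edgeR adjusted p = 6e-04). These were the only calls among 12 tested genes of pyruvate entry into mitochondria, whose median was 0.029. In the pentose phosphate pathway, 1 of 8 tested genes was called, with a median of -0.084. It was H6pd, for the hexose-6-phosphate dehydrogenase that uses the glucose 6-phosphate pool of the endoplasmic reticulum shared with G6pc and Slc37a4, and it increased 12.6-fold, from 19.4 ± 8.21 to 244 ± 67.9 CPM (3.66, SE 0.40, edgeR adjusted p = 0.00041). Every Hdac1/2-deleted mouse, at 194 to 321 CPM, was above every control mouse, at 9.92 to 24.96 CPM.

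Among 8 tested hexose transporters, 1 increased and 3 decreased, beside 12.4% and 12.7% of all tested genes, with a median of -0.74. Slc2a1, a glucose carrier of most tissues, increased from 9.78 ± 1.31 to 20.6 ± 5.60 CPM (1.08, edgeR adjusted p = 0.0053), and fell under 2-fold without C1 (0.98) or H5 (0.88). Slc5a9, a sodium-coupled mannose and fructose carrier, decreased from 59.6 ± 10.2 to 12.5 ± 3.34 CPM (-2.26, edgeR adjusted p = 0.00012). Slc5a11, a sodium-coupled inositol carrier, decreased from 267 ± 66.5 to 96.1 ± 26.7 CPM (-1.47, edgeR adjusted p = 0.0022), and Slc2a9, a urate carrier of the hexose carrier family, from 59.4 ± 25.4 to 11.1 ± 2.15 CPM (-2.41, edgeR adjusted p = 0.0013). The members that decreased were therefore not carriers of glucose as their main known substrate.

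**Figure D5:**
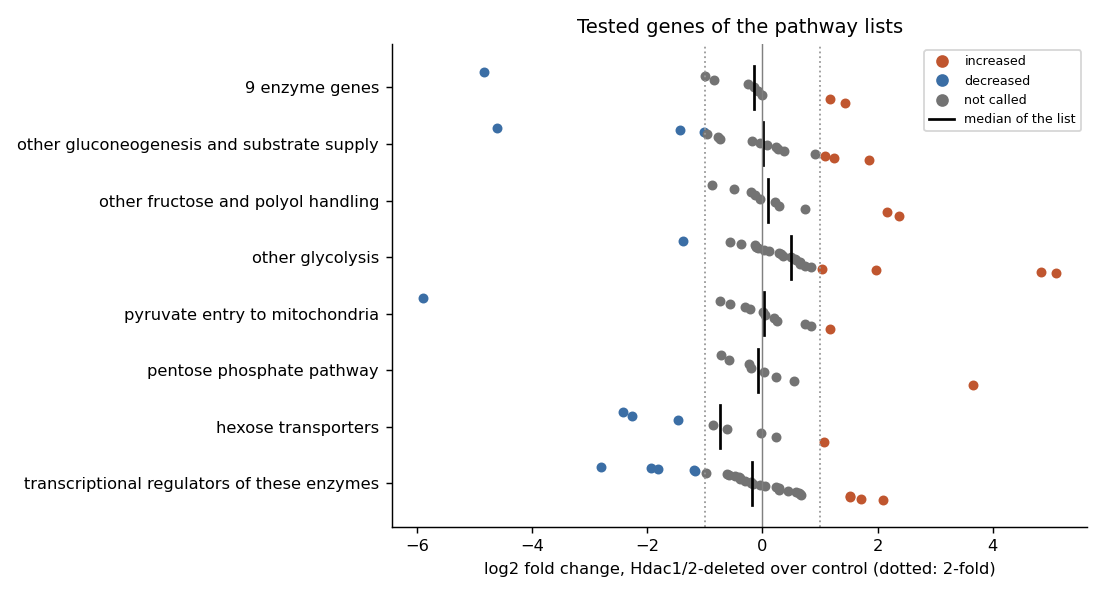
Log2 fold change (horizontal axis) of every tested gene in the set of 9 and in 7 further lists, with 1 point per gene, increased genes in orange, decreased genes in blue, the rest in grey, and the list median as a black bar. The lists centre near 0 except other glycolysis, with a median of 0.49, and hexose transporters, with a median of -0.74, and Pck1, Ldhb and Pdk4 lie far to the left of their lists.

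Of 30 tested transcriptional regulators known to act on such enzymes, 4 increased and 5 decreased, with a median of -0.18. The increases included Sik1, a kinase that restrains CRE-driven transcription, from 7.37 ± 0.52 to 31.3 ± 5.34 CPM (2.09, edgeR adjusted p = 5.2e-05). Foxa3, a forkhead factor of liver and gut, increased from 10.9 ± 1.55 to 35.5 ± 0.30 CPM (1.71, edgeR adjusted p = 7.4e-05), and Ppargc1b, a coactivator of nuclear receptors, from 12.6 ± 2.44 to 36.3 ± 4.06 CPM (1.52, edgeR adjusted p = 0.00029). Klf15, a factor known to promote gluconeogenic genes in fasting, decreased from 13.0 ± 7.73 to 1.85 ± 0.55 CPM (-2.80, edgeR adjusted p = 0.0049). Klf15 CPM was 15.7 in C1, 4.25 in C3 and 19.0 in C3-3. C3 was the lowest control mouse for Pck1 too, but also for other genes such as Srebf1, at 287 CPM against 463 and 537 CPM. A link between Klf15 and Pck1 was not tested. Srebf1, a factor of lipid synthesis, decreased from 429 ± 128 to 112 ± 21.95 CPM (-1.94, edgeR adjusted p = 5e-04), and Epas1, a hypoxia-inducible factor, from 82.7 ± 7.38 to 23.5 ± 5.21 CPM (-1.82, edgeR adjusted p = 0.00012).

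Markers of other cells and of position along the gut also differed between the groups. Of 13 enterocyte markers, 1 increased and 4 decreased, and their summed level was 90610 to 104300 CPM in the control mice and 37210 to 49960 CPM in the Hdac1/2-deleted mice, with none at 0. Most of the difference in this sum came from the lipoprotein genes Apoa4, at 38390 ± 6240 and 6283 ± 3126 CPM (decreased), and Apoa1, at 22710 ± 2132 and 13220 ± 2715 CPM (not called), and the median log2 fold change of the 13 markers was -0.57. Of the 13 markers, 10 were lower and 1 was higher in every Hdac1/2-deleted mouse than in any control mouse. Among all tested genes, 53.2% did not overlap in either direction. Markers of the distal small intestine did not move together, with 1 of 4 increased, 1 decreased and a median of 0.85. Their sum, 636 to 925 CPM in the control mice and 112 to 187 CPM in the Hdac1/2-deleted mice, followed Cubn, which decreased from 778 ± 167 to 54.1 ± 37.1 CPM, while Slc10a2 increased from 1.15 ± 0.94 to 6.44 ± 0.97 CPM. Markers of the proximal part summed to 174 to 258 and 270 to 339 CPM, with 1 of 4 increased and a median of 1.65. The part of cell composition and of gut position in the changes of Pck1, Hk2 and Pklr was not tested.

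Markers of liver cells and of further cell types were also read, and their part in the changes of the enzymes was not tested. Their counts of called genes stand beside 12.4% increased and 12.7% decreased among all tested genes. The hepatocyte markers summed to 8.49 to 10.9 CPM in the control mice and 18.3 to 57.2 CPM in the Hdac1/2-deleted mice, with 3 of 7 increased and 3 decreased, and the defining marker Alb was at 0.810 to 0.997 CPM and 0.216 to 0.316 CPM. Cyp2e1 was at 0 in all Hdac1/2-deleted mice, and Hpd was the third decrease. The 3 increases were those of Ttr, Tat and Serpina1a. Ttr went from 1.56 ± 0.25 to 26.3 ± 22.9 CPM and Tat from 0.079 ± 0.0099 to 5.35 ± 6.57 CPM. Serpina1a went from 0.106 ± 0.096 to 0.94 ± 0.46 CPM. Immune markers summed to 117 to 188 CPM in the control mice and 46.8 to 71.5 CPM in the Hdac1/2-deleted mice, with 3 of 9 decreased. Fibroblast and smooth muscle markers summed to 4.80 to 63.0 and 2.63 to 7.36 CPM, with 4 of 7 decreased, and crypt stem cell markers to 276 to 371 and 72.0 to 160 CPM, with 2 of 4 decreased. Exocrine pancreas markers summed to 0.226 to 2.76 and 2.89 to 9.49 CPM, with 1 of 3 increased. By edgeR, 0 of 2 endothelial and 0 of 5 cycling cell markers were called, as well as 0 at an unadjusted p under 0.05 and 0 by DESeq2, with sums of 1.36 to 2.43 and 1.46 to 3.02 CPM, and of 159 to 284 and 172 to 292 CPM. The share of mitochondrial counts, 2.50% to 5.72% in the control mice and 1.45% to 3.69% in the Hdac1/2-deleted mice, overlapped.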

How the data were processed

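Jejunal IEC enriched with EDTA from 3 control and 3 Hdac1/2-deleted mice were sequenced as poly(A) libraries from a directional kit, with RNA integrity selected by the authors. The authors deposited raw counts per gene and a normalized score per sample, which is the counts times 1 factor per sample, rounded. The score and the authors' own fold changes, mean expression and p-values of DESeq and edgeR, which stand in the same table, were not used. The submitters' processing notes name STAR 2.4.0f1, bcl2fastq 1.8.4 and the build mm9, while the study's methods name GRCm38. The counting program, the annotation and the use of strand are not given in the sources used here. Positions and exon lengths are from GENCODE M21 (GRCm38), and promoters from RefSeq (GRCm38.p6).

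Counts were fitted with edgeR 4.0.16 (R 4.3.3, limma 3.58.1; filterByExpr, TMM factors of 0.892 to 1.14, robust quasi-likelihood, prior count 0.125, no covariates) on all genes, and plots were drawn with matplotlib 3.10.9 in Python 3.11.15. The SE is the log2 fold change divided by the square root of F, and intervals are 95%. DESeq2 1.42.0, other scalings, filters, prior counts and thresholds, and leaving out each mouse were alternatives. The steps were tested on simulated data. The edgeR p-values set the group difference against the spread of these 6 mice within their groups, moderated over all tested genes. The genes named are the 9 enzymes, Hdac1, Hdac2, genes that complete their routes (some items are not reported here), all called genes of each further list (where over 6, the 3 largest each way) and the nearest genes by pattern. The 9 genes and all lists were chosen with earlier results of these data known. G6pc2, Tktl1, Onecut1, Ahsg and Amy2a5 were not matched in the table and Slc2a12 and Gckr did not pass the filter. Protein sequences were not used here.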

Additional observations from a re-analysis of the deposited data

How the results depend on the processing

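Pck1 was called under all 12 alternatives run on it, Pklr under 11 and Hk2 under 9. The 2 increased and 1 decreased enzymes were found under both other scalings, DESeq2, both other filters and the other prior count. Without the 2-fold limit 2 enzymes decreased (Pck1 and Pck2), as did 3168 of all genes, and 3198 genes increased. At an adjusted p of at most 0.01, 1 enzyme increased. With 1 mouse left out, 0 to 2 enzymes increased and 1 to 2 decreased. Scaling by library totals alone gave 2463 increased and 1538 decreased genes, against 1944 and 1990, and moved the median log2 fold change of all genes to 0.18.

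Values near 0 that were not called changed sign. Fbp1 was at 0.0047 with DESeq2 size factors, 0.21 with library totals, 0.011 with DESeq2, 0.00020 without a filter, 0.011 with at least 10 counts in every sample, and -0.27 to 0.26 with 1 mouse left out. Library totals gave 0.048 for Khk, 0.080 for Pfkfb3, 0.0069 for Hdac2, 0.089 for Slc2a5 and 0.070 for Pkm. With 1 mouse left out, the ranges were -0.27 to 0.011 for Khk, -0.45 to 0.61 for Pfkfb3, -0.46 to 0.40 for Slc2a5 and -0.22 to 0.017 for Pkm. The cause was not tested. The differences in log2 ratio stayed at -4.32 to -3.40 (Pck1 to Pck2), 1.37 to 1.93 (Hk2 to Hk1) and 1.23 to 1.53 (Pklr to Pkm). No paired analysis was possible because no label gives pairs of mice.

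With 3 mice a group, exact tests cannot pass 0.05. Sex, litter and feeding state are not known for each mouse, and Y-linked counts were high in C3 only. Counts per gene do not separate the isoforms of Khk or Pklr, and RNA levels give no enzyme activity.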

Other observations

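Beyond the genes the naming rule takes, 2 further regulators of glucose production decreased. Creb3l3, a membrane-bound factor of liver and gut, went from 817 ± 118 to 361 ± 61.8 CPM (log2 fold change -1.18, edgeR adjusted p = 0.0012), and Nr3c1, the glucocorticoid receptor, from 113 ± 4.16 to 50.5 ± 7.81 CPM (-1.17, edgeR adjusted p = 0.00039). Klf10, a factor that responds to sugar, increased from 14.2 ± 4.69 to 40.8 ± 17.9 CPM (1.52, edgeR adjusted p = 0.016). Mlxipl, for the carbohydrate response factor ChREBP that acts on Pklr and Khk, did not pass the test, at 176 ± 25.9 and 239 ± 40.9 CPM (0.44, edgeR adjusted p = 0.076). Ppargc1a was lower in every Hdac1/2-deleted mouse, at 46.0 ± 6.25 and 30.6 ± 4.95 CPM, but under 2-fold (-0.59, edgeR adjusted p = 0.022). Txnip, a target of ChREBP, was highest in C1, at 374 CPM against 204 and 153 CPM in C3 and C3-3, and stood at 182, 106 and 84.9 CPM in H1, H5 and H9 (-0.97, edgeR adjusted p = 0.095). Slc5a1, the main glucose carrier of the brush border, was at 3687 ± 1258 and 3640 ± 618 CPM (-0.018, edgeR adjusted p = 0.96). Gpd1, which links glycerol 3-phosphate to the trioses, and Gapdh were higher in every Hdac1/2-deleted mouse, at log2 fold changes of 0.92 and 0.85, under 2-fold (edgeR adjusted p = 0.0078 and 0.027). Mdh1, for the cytosolic malate dehydrogenase, and Gpt, for alanine transaminase, were lower in every Hdac1/2-deleted mouse, at -0.97 and -0.76 (edgeR adjusted p = 0.0015 and 0.0051). These genes were picked out after their values had been seen.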
